A study of Mus musculus with 2 samples.

Results

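The Rab GTPases were followed in washed mouse platelets with and without Smad4. The family was taken as every probe set whose single annotated gene symbol is Rab followed by a number and at most 1 letter, which leaves out Rab-interacting proteins and exchange factors. This gave 59 Rab genes on 132 probe sets, of 18193 genes with a single symbol and 45101 probe sets in all. RNA of platelets from Smad4 -/- mice (strain C57BL/6, with Smad4 flanked by loxP sites and a Cre recombinase under the platelet factor 4 promoter, which acts in megakaryocytes and platelets) was hybridised to 1 Affymetrix mouse array. RNA of platelets from Smad4 f/f mice of the same strain, which carry the loxP sites and are described as the wild-type control, was hybridised to another. The submitters give 6 mice per genotype; whether their RNA was pooled, and the age of the mice, are not given in the sources used here. With 1 array per genotype there are no replicates and no test was possible, so every difference below is one between 2 arrays, and their number limits the precision.

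Rab proteins are small GTPases that mark membranes. In the GTP-bound state they sit on a vesicle or organelle and recruit effectors such as tethers, motors and coat adaptors, and in the GDP-bound state they are extracted into the cytosol by GDP dissociation inhibitor. In platelets they are best known for the biogenesis and release of dense and alpha granules, for endosomal recycling and for the traffic of surface receptors. Platelets have no nucleus, and their mRNA was made in the megakaryocyte.

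Values are MAS5 signals, 1 per probe set and array, in arbitrary units. A signal depends on the probes as well as on the transcript, so differences are taken between the arrays for the same probe set. The order of signals over genes served only to pick genes to describe, and sums over markers are set only against the same sum on the other array. A floor was set at a signal of 145 (log2 7.18), the 60th percentile of the array on which it was higher. Each gene was read from whichever of its probe sets had the strongest mean log2 value, avoiding probe sets ending in _x_at, and counted as measured if that probe set reached the floor on at least 1 array. Ratios have Smad4 -/- on top and were taken after raising signals to the floor, and a ratio with 1 array below the floor is a lower bound of the difference, written as at least that fold. A 2-fold difference serves as a rule of size.

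Of the 59 Rab genes, 47 (79.7%) were measured, against 61.0% of all genes. Only Rab6b passed 2-fold, being higher in Smad4 -/- platelets, and 0 were at least 2-fold lower. Among all 11089 measured genes, 7.00% passed 2-fold in either direction, 3.42% upwards and 3.58% downwards, against 2.13% (1 of 47) among the Rab genes. Of the 38 Rab genes above the floor on both arrays, the same 1 passed, while 5.75% of all such genes did, 2.98% upwards and 2.77% downwards. At 1.5-fold, 6 Rab genes were higher and 3 were lower in Smad4 -/-, together 19.1% of the 47, beside 25.1% of all measured genes (11.8% higher and 13.3% lower). Beside Rab6b the 6 were Rab5b, Rab37, Rab24, Rab19 and Rab39b, and the 3 were Rab31, Rab15 and Rab40b. The other 46 Rab genes had log2 ratios, after flooring, between -0.99 and 0.82. The median log2 ratio over the 47 was -0.04, beside -0.02 over all measured genes, and it was 0.068 with the floor at the 75th percentile.

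**Figure D1:**
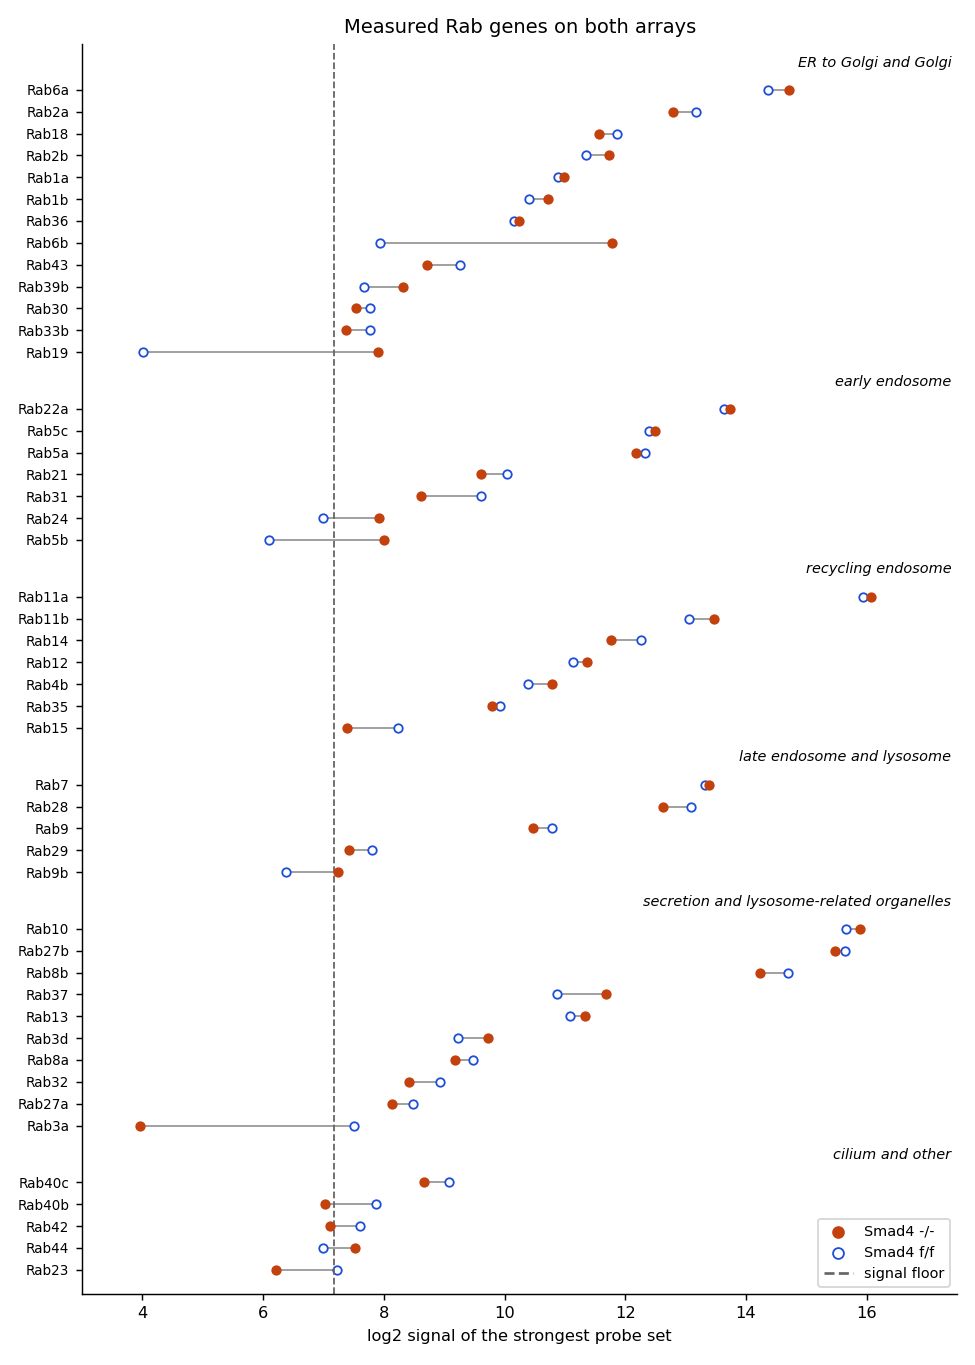
Log2 signal (horizontal axis) of the probe set taken for each of the 47 measured Rab genes, with a filled point for Smad4 -/-, an open point for Smad4 f/f and a line joining them, in groups of cellular role. The points of most genes lie close together. The longest lines are Rab6b, which is above the dashed signal floor on both arrays, and Rab19 and Rab3a, each of which has 1 array far below the floor. Rab5b, below the floor in Smad4 f/f, has the next longest line.

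The arrays resembled each other in platelet identity. All 10 platelet markers with a probe set were measured, and their log2 ratios lay between -0.11 and 0.43. Smad4 itself was little different: its probe sets read 894, 548 and 288 in Smad4 -/-, against 949, 600 and 313 in Smad4 f/f, with log2 ratios of -0.09, -0.13 and -0.12. Whether they lie inside the deleted part was not analysed here, so they do not check the genotype, and every direction given here rests on the labels. Erythroid markers were mostly higher in Smad4 -/-, 6 of the 9 measured by 2-fold or more, with summed signals of 30602 in Smad4 -/- and 11421 in Smad4 f/f; Epb42, Rhag and the 1 probe set annotated to Hba-a1 alone did not reach the floor. At least 2-fold higher were also 1 of 6 T and NK cell markers (Cd28) and 2 of 6 B cell markers (Cr2 and Jchain). The same held for 1 of 6 myeloid markers (Csf1r) and 1 of 5 endothelial markers (Flt1), beside 3.42% of all measured genes. In these lists 0 were at least 2-fold lower. Log2 ratios below 0 were those of the erythroid marker Klf1 (-0.31) and of Cd3d (-0.98), Blk (-0.84), Ms4a1 (-0.01), Lyz2 (-0.09), Robo4 (-0.74) and Erg (-0.67). The signal from the 3' end over that from the 5' end of the Gapdh control, which tracks RNA quality, was 2.61 in Smad4 -/- and 1.86 in Smad4 f/f, and that of beta-actin was 1.27 in Smad4 -/- and 1.16 in Smad4 f/f. In whole platelet RNA, fewer cells of a type and less RNA per cell cannot be told apart.

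Rab6 proteins act at the Golgi, where they guide retrograde transport to the endoplasmic reticulum and the fission of post-Golgi carriers. Rab6a is made in most tissues, whereas Rab6b is known mainly from the brain. Rab6b had the highest floored ratio of any Rab gene. Its probe sets read 3502, 3446, 2569 and 570 in Smad4 -/-, against 246, 210, 279 and 164 in Smad4 f/f. Every reading was above the floor, and each probe set was higher in Smad4 -/-. The probe set taken for the gene was 14.3-fold higher in Smad4 -/- (log2 ratio 3.83). After flooring this was the highest ratio among all measured genes, the next being 3.38, while the lowest was -4.39. With no floor the log2 ratio of Rab19 was higher, at 3.90, with its Smad4 f/f signal far below the floor. The other Rab6b probe sets were 16.4-fold, 9.21-fold and 3.47-fold higher. Of these 4 probe sets, 3 are annotated to the same source sequence, so they are not independent readings of the gene. They make up all 4 of the measured Rab probe sets that were at least 2-fold higher, out of 95, beside 3.35% of all measured probe sets.

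Rab6a, its paralogue, read 26914, 28174 and 31945 in Smad4 -/-, against 21080, 19477 and 29617 in Smad4 f/f. All 3 probe sets were higher in Smad4 -/-, by 1.28-fold, 1.45-fold and 1.08-fold. The ratio of Rab6b therefore stood apart from that of Rab6a on every probe set of both genes. Erythroid markers and the Gapdh 3' to 5' signal were also higher on the Smad4 -/- array, and their part in the Rab6b difference was not tested. Of 8 markers of neurons, where Rab6b is well known, 3 were measured, with log2 ratios between -0.20 and 0.09. Syt1 read 220 in Smad4 -/- and 206 in Smad4 f/f, and Rbfox3 read 261 in Smad4 -/- and 257 in Smad4 f/f. Map2 read 12.7 in Smad4 -/-, below the floor, and 167 in Smad4 f/f. Snap25, Tubb3, Nefl, Stmn2 and Eno2 were below the floor on both arrays.

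**Figure D2:**
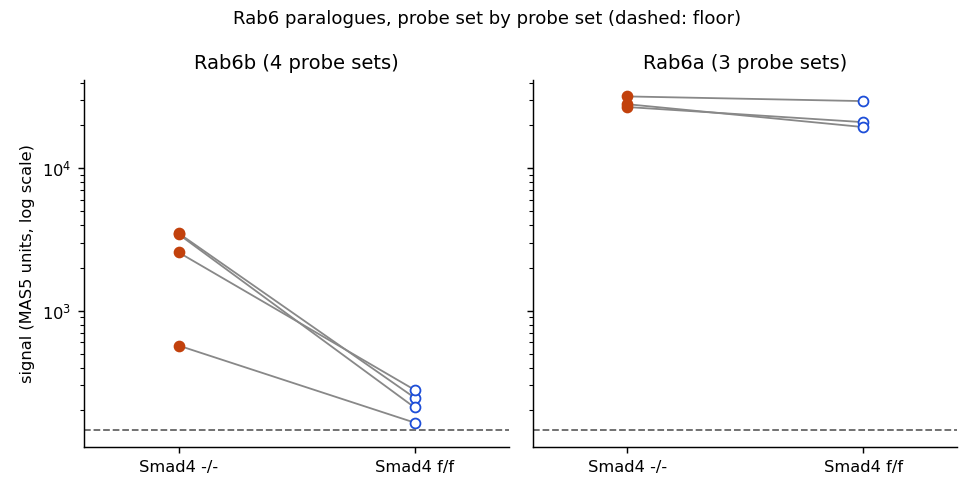
Signal (vertical axis, log scale) of each measured probe set of Rab6b (4 probe sets, left panel) and Rab6a (3 probe sets, right panel) in Smad4 -/- (filled) and Smad4 f/f (open), with a line joining the values of a probe set and a dashed line at the floor of 145. Every Rab6b line falls steeply towards Smad4 f/f, where the signals are between 164 and 279, while the Rab6a lines are nearly flat; heights are not comparable between probe sets.

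SMAD proteins bind DNA, so the promoters of both Rab6 genes are shown, from 250 bases before to 50 after the annotated start (RefSeq, GRCm38.p6). They are given with the promoter of Rab15, the only one among 60 promoters of 48 Rab genes to hold the palindrome GTCTAGAC to which SMAD proteins bind in vitro. Rab6b lies at chr9:103111824-103112123 on the + strand, Rab6a at chr7:100607336-100607635 on the + strand, and the Rab15 sequence, one of 4 annotated starts, at chr12:76813807-76814106 on the - strand. Both strands were searched for GTCTAGAC and for CAGAC, a form of the short SMAD box. The palindrome does not hold the whole string CAGAC. Also searched were a motif each of the GATA and ETS factors of megakaryocytes, AGATAA and CCGGAAG. Matches are in capitals, on either strand.
Rab6b: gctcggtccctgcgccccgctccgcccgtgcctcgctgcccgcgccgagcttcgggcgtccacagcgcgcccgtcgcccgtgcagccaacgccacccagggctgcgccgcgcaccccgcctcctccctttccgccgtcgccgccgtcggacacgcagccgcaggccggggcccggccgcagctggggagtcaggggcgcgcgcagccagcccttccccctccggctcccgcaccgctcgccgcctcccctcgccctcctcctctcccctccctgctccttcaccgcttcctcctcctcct
Rab6a: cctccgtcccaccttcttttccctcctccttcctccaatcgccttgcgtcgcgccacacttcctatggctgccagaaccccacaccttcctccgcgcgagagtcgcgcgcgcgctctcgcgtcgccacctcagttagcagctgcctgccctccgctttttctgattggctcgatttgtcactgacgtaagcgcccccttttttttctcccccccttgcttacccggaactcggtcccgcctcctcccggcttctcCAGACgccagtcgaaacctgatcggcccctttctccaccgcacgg
Rab15: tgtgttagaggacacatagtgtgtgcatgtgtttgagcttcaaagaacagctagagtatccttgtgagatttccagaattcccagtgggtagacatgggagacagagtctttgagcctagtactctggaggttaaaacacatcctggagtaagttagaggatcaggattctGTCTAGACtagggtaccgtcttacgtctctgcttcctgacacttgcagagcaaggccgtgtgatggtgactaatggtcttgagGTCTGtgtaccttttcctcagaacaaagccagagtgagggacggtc
The Rab6b sequence is 78.7% G and C and holds 42 CpG pairs but none of these letters. Rab6a has CAGAC starting 5 bases after the start, and Rab15 has GTCTAGAC starting 79 bases before it and CAGAC on the other strand. Over all 32851 promoters searched, 0.213% hold the palindrome, 49.6% CAGAC, 11.2% the GATA motif and 8.86% the ETS motif. Among the 60 Rab promoters the shares were 1.67% for the palindrome, 48.3% for CAGAC, 3.33% for the GATA motif and 8.33% for the ETS motif. A match is a description of letters and not of a binding site.

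No other Rab gene of the endoplasmic reticulum and Golgi passed 2-fold. With Rab6b, 13 of 16 genes of this role were measured, with a median log2 ratio of 0.10. Rab2a and Rab2b, which act between the endoplasmic reticulum and the Golgi, differed in direction. Rab2a read 7051, 794, 708 and 211 in Smad4 -/- on its 4 stronger probe sets, against 9241, 1437, 1463 and 478 in Smad4 f/f. Each was lower in Smad4 -/-, by 1.31-fold, 1.81-fold, 2.06-fold and 2.27-fold, and the other measured probe set, with 48.0 in Smad4 -/- and 170 in Smad4 f/f, was at least 1.17-fold lower. The mean floored log2 ratio of these 5 was -0.74, short of 2-fold, but it includes that bound and is itself one. Of the 3 Rab probe sets at least 2-fold lower, 2 belong to Rab2a. Over all measured probe sets 3.50% were at least 2-fold lower. Rab2b read 3393 in Smad4 -/- and 2608 in Smad4 f/f, 1.30-fold higher, and the log2 ratios of its 5 measured probe sets ran from -0.08 to 0.75.

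Rab1a and Rab1b, which direct transport from the endoplasmic reticulum to the Golgi, were close on both arrays. Rab1a read 2031 in Smad4 -/- and 1899 in Smad4 f/f, and Rab1b read 1687 in Smad4 -/- and 1359 in Smad4 f/f. Rab18, a GTPase of the endoplasmic reticulum and lipid droplets, read 3035 in Smad4 -/- and 3743 in Smad4 f/f, 1.23-fold lower, with its other probe set 1.38-fold lower. Rab43, a Golgi Rab, had log2 ratios of -0.55 and -0.05. Rab36 had log2 ratios of 0.08 and 0.23. The neuronal Rab39b was 1.57-fold higher on its single measured probe set, with 320 in Smad4 -/- and 204 in Smad4 f/f. Rab30 and Rab33b, both of the Golgi, were near the floor, with log2 ratios of -0.23 and -0.40. Rab19 read 241 in Smad4 -/- and 16.2 in Smad4 f/f; since the second value is below the floor, the gene was at least 1.66-fold higher.

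The Rab genes of secretion and of lysosome-related organelles hold the best-known platelet members, and 10 of 14 were measured. None passed 2-fold, 4 had a log2 ratio above 0 and 6 below, and the median was -0.23. Rab27b, which in mouse platelets is needed for normal numbers and release of dense granules, read 45705, 20575, 5044 and 312 in Smad4 -/-, against 50713, 30961, 9087 and 231 in Smad4 f/f. The first 3 of these had lower signals in Smad4 -/- (log2 ratios of -0.15, -0.59 and -0.85), while the last, which ends in _x_at, was 1.35-fold higher. Rab27a, the relative that is lost in the ashen mouse, read 282 and 147 in Smad4 -/-, against 356 and 187 in Smad4 f/f. Both of its measured probe sets were 1.27-fold lower, and its other 2 probe sets were below the floor on both arrays.

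Rab32 and Rab38 act in the formation of melanosomes and platelet dense granules. Rab32 read 340 in Smad4 -/- and 490 in Smad4 f/f, 1.44-fold lower on its single probe set. Rab38, mutated in the chocolate mouse, did not count as measured, since its main probe set read 96.3 in Smad4 -/- and 84.1 in Smad4 f/f, below the floor. Its other probe set, ending in _x_at, read 195 in Smad4 -/- and 299 in Smad4 f/f, 1.53-fold lower.

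Rab10 and the Rab8 genes serve exocytosis, Rab10 being known for the delivery of glucose transporters in fat cells. Rab10 read 60448, 43487 and 5448 in Smad4 -/-, against 51543, 42941 and 5766 in Smad4 f/f, with log2 ratios between -0.08 and 0.23. Rab8b read 19111 in Smad4 -/- and 26530 in Smad4 f/f, 1.39-fold lower. Rab8a, its paralogue, read 577 and 691 in Smad4 -/-, against 715 and 582 in Smad4 f/f, so its probe sets went opposite ways.

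Rab37, a Rab of regulated secretion known from mast cells, had the highest ratio after Rab6b among Rab genes above the floor on both arrays. It read 3299 in Smad4 -/- and 1868 in Smad4 f/f, 1.77-fold higher, but its second probe set read 323 in Smad4 -/- and 350 in Smad4 f/f. Rab13, which acts at tight junctions, was 1.18-fold higher. The Rab3 genes are the Rabs of synaptic and other regulated vesicles. Rab3d had 4 measured probe sets that disagreed, with log2 ratios from -0.71 to 0.48. Rab3a was at least 1.25-fold lower by the probe set taken for it, which read 15.5 in Smad4 -/- and 182 in Smad4 f/f. Its probe set ending in _x_at read 469 in Smad4 -/- and 1476 in Smad4 f/f, 3.15-fold lower, the lowest log2 ratio (-1.65) of any measured Rab probe set. Rab3b read 44.9 in Smad4 -/- and 40.3 in Smad4 f/f, and it was below the floor on both arrays, as were Rab3c and Rab26.

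Early endosome Rabs receive cargo from the plasma membrane, and 7 of 9 were measured with a median log2 ratio of 0.09, which was as low as -0.16 under other settings. The Rab5 genes, which drive the fusion of early endosomes, differed little between the arrays, apart from Rab5b. Rab5a read 4636 in Smad4 -/- and 5106 in Smad4 f/f, and Rab5c read 5786 in Smad4 -/- and 5349 in Smad4 f/f, each from a single probe set. Rab5b was near or below the floor and its probe sets conflicted: one read 257 in Smad4 -/- and 68.3 in Smad4 f/f, at least 1.77-fold higher, and the other 5.66 in Smad4 -/- and 168 in Smad4 f/f, at least 1.16-fold lower. Rab22a, which acts between early and recycling endosomes, read 13568, 3149, 1552 and 1330 in Smad4 -/-, against 12725, 2519, 2173 and 2051 in Smad4 f/f. The first 2 were higher in Smad4 -/- and the last 2 lower, with log2 ratios from -0.63 to 0.32. Rab31, the close relative of Rab22a that sorts cargo between the trans-Golgi network and endosomes, read 393 in Smad4 -/- and 779 in Smad4 f/f. At 1.98-fold lower it came closest to the 2-fold line on the lower side. Its second probe set was at least 1.09-fold lower, with 118 in Smad4 -/- and 158 in Smad4 f/f. Rab21, an integrin traffic Rab, was 1.35-fold and 1.14-fold lower on its 2 probe sets. Rab24, linked to autophagy, was at least 1.68-fold higher on one probe set and at least 1.04-fold lower on the other.

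Recycling endosome Rabs return receptors to the surface. Of 9, 7 were measured, all 7 above the floor on both arrays, and their median log2 ratio was 0.14. Over the settings tried, the median for this role lay between 0.009 and 0.23. Rab11a read 68973 and 42211 in Smad4 -/-, against 62532 and 45231 in Smad4 f/f, and its probe sets differed in direction. Rab11b read 11335, 3732 and 2418 in Smad4 -/-, against 8545, 3074 and 2495 in Smad4 f/f, with log2 ratios of 0.41, 0.28 and -0.05. Rab14, of the trans-Golgi network and endosomes, was 1.42-fold lower on its strongest probe set, while its other 3 measured probe sets had log2 ratios between -0.19 and 0.18. Rab4b, of the fast recycling route, read 1757 in Smad4 -/- and 1341 in Smad4 f/f, 1.31-fold higher. Its paralogue Rab4a, which has been tied to alpha granule release in human platelets, was below the floor, with 98.4 in Smad4 -/- and 138 in Smad4 f/f on the stronger of 2 probe sets. Rab35 and Rab12 had log2 ratios of -0.12 and 0.23. Rab15, whose promoter is shown above, read 167 in Smad4 -/- and 302 in Smad4 f/f on its single probe set, 1.81-fold lower.

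Late endosome and lysosome Rabs had a median log2 ratio of -0.32 over 5 measured genes of 6. Over the settings tried, it lay between -0.33 and -0.16. Rab7, the late endosome Rab needed for fusion with lysosomes, was nearly equal, with 10752 and 1655 in Smad4 -/- and 10258 and 1481 in Smad4 f/f. Rab28, known from cone photoreceptors, read 6297 and 984 in Smad4 -/-, against 8670 and 1474 in Smad4 f/f, with log2 ratios of -0.46 and -0.58. Rab9, which returns mannose 6-phosphate receptors to the Golgi, was 1.25-fold lower, with 1425 in Smad4 -/- and 1775 in Smad4 f/f. Rab29, known as a partner of the kinase LRRK2, was 1.31-fold lower, and Rab9b reached the floor in Smad4 -/- only (151 in Smad4 -/-, against 83.4 in Smad4 f/f). The remaining 5 genes, among them the cullin-linked Rab40b and Rab40c, had log2 ratios between -0.69 and 0.34. Rab40c was 1.32-fold lower, and Rab40b, below the floor in Smad4 -/-, was at least 1.61-fold and 1.68-fold lower on its 2 probe sets. Rab23, a regulator of Hedgehog signalling, and Rab42 reached the floor in Smad4 f/f only, and Rab44 in Smad4 -/- only.

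The 12 Rab genes that did not count as measured were Rab3b, Rab3c, Rab4a, Rab7b, Rab17, Rab20, Rab25, Rab26, Rab33a, Rab34, Rab38 and Rab39. In 9 of them no probe set reached the floor on either array, with highest signals between 13.4 and 138. Rab7b and Rab17 had another probe set that reached it in Smad4 f/f only, with 40.0 in Smad4 -/- and 146 in Smad4 f/f for Rab7b and 26.4 in Smad4 -/- and 244 in Smad4 f/f for Rab17; that of Rab38 reached it on both arrays. Among the 132 probe sets, 37 lay below the floor on both arrays, and values there carry no order.

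Probe sets of the same gene were read on the same 2 arrays. Their disagreement serves as a rough yardstick for a ratio and is not a measure of its error alone, since a signal also depends on the probes. The SD of the log2 ratio among such probe sets, pooled within genes, was 0.48 over 4252 genes with 2 or more that were measured, and 0.47 over 26 such Rab genes. In 13 of these 26 Rab genes all probe sets pointed the same way, and in 13 they did not. Each of the Rab6b ratios, from 1.80 to 4.04, was larger than the pooled SD of 0.48, which does not measure the error of a genotype difference. The median size of the log2 ratio was 0.38 over the 47 Rab genes and 0.33 over all measured genes, both within that SD. The SD holds no spread between animals or arrays. The 12 Rab genes with the strongest signals (Rab11a, Rab10, Rab27b, Rab6a, Rab8b, Rab22a, Rab7, Rab11b, Rab2a, Rab28, Rab5c and Rab5a) had log2 ratios between -0.47 and 0.41, with 7 above 0 and 5 below.

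**Figure D3:**
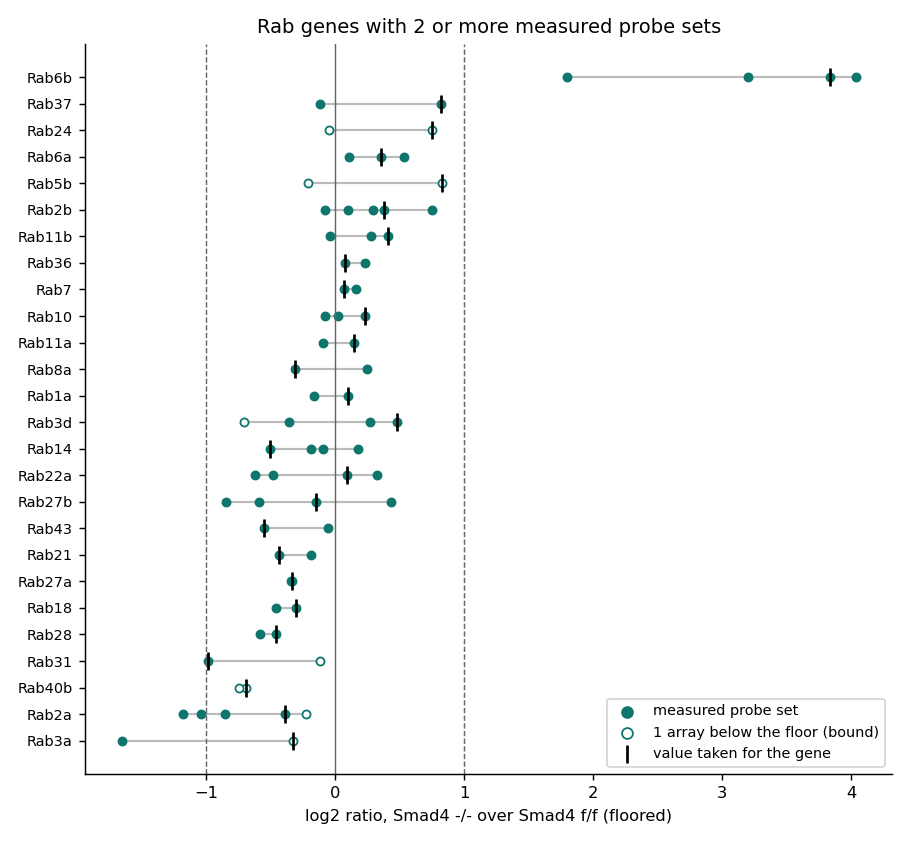
Floored log2 ratio, Smad4 -/- over Smad4 f/f (horizontal axis), of every measured probe set of the 26 Rab genes with at least 2, where open points have 1 array below the floor, the black tick is the value taken for the gene and dashed lines mark 2-fold. All 4 Rab6b points lie right of the 2-fold line, 2 Rab2a points and 1 Rab3a point lie left of the lower one, and in 13 genes the points straddle 0.

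**Figure D4:**
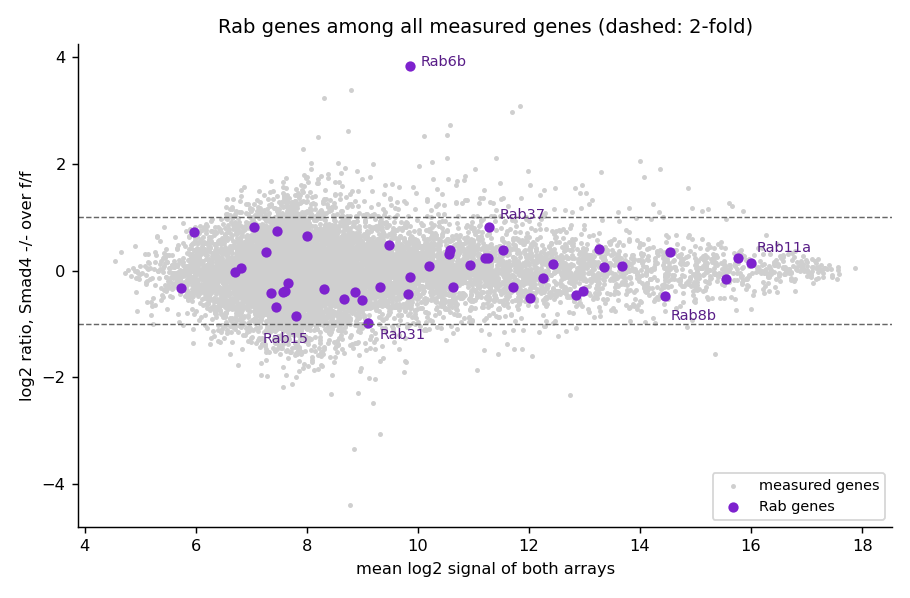
Floored log2 ratio, Smad4 -/- over Smad4 f/f (vertical axis), against mean log2 signal of both arrays (horizontal axis) for the 11089 measured genes (grey) and the 47 Rab genes (purple), with dashed lines at 2-fold. Rab6b, at 3.83, lies above all grey points, and the other Rab genes lie inside the dashed lines along the whole range of signal.

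The genes that load, activate, switch off and read Rab proteins were followed in 4 lists drawn up from their known roles. Of 105 such partner genes, 76 were measured, 3 were at least 2-fold higher and 1 was at least 2-fold lower in Smad4 -/-, beside 3.42% and 3.58% of all measured genes. With the floor at the 75th percentile 0 passed 2-fold. Their median log2 ratio was 0.01.

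Prenylation and GDP dissociation proteins attach the lipid anchor and chaperone inactive Rabs. In this list 6 of 7 genes were measured, 0 passed 2-fold, and the median log2 ratio was 0.31. Over the settings tried, the median of the list lay between 0.11 and 0.40. Chm, which encodes Rab escort protein 1, read 983 in Smad4 -/- and 569 in Smad4 f/f, 1.73-fold higher, but its other measured probe set had a log2 ratio of 0.15. Chml, its paralogue, was at least 1.63-fold higher. Rabac1, a prenylated Rab acceptor, read 45850 in Smad4 -/- and 32329 in Smad4 f/f, 1.42-fold higher, and Rabggtb, a subunit of the Rab prenylating enzyme, was 1.14-fold lower.

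Exchange factors load Rabs with GTP. Of 26 measured genes in this list, Mon1a alone passed 2-fold. Mon1a, a subunit of the Rab7 exchange factor, read 346 in Smad4 -/- and 77.0 in Smad4 f/f, at least 2.38-fold higher on 1 probe set. Sbf1 was at least 1.71-fold higher, with its other probe set lower (log2 ratio -0.17). Dennd6a and Dennd2d, which carry the DENN exchange domain, were 1.63-fold and 1.55-fold lower, with log2 ratios of -0.34 for the other probe set of Dennd6a and -0.03 for that of Dennd2d. Hps4, which with Hps1 activates Rab32 and Rab38, was 1.32-fold lower, with 786 in Smad4 -/- and 1038 in Smad4 f/f, and Hps1 had 3 measured probe sets. These read 178, 1323 and 34.8 in Smad4 -/-, against 179, 1816 and 236 in Smad4 f/f, with log2 ratios of -0.01, -0.46 and, as a bound, -0.70. Hps1 and Hps4, like Sytl2, Unc13d and Sytl4 below, were picked for their role in granules after values were seen.

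GTPase-activating proteins switch Rabs off. Of 23 measured genes, Sgsm1 was at least 2.17-fold higher (315 in Smad4 -/- and 69.6 in Smad4 f/f) and Tbc1d16 was at least 2.12-fold lower (below the floor in Smad4 -/- and 307 in Smad4 f/f). Both rest on signals of which 1 is below the floor. The Sgsm1 probe set ends in _s_at, and its other measured probe set gave a bound of only 0.43 on the log2 scale. The mean of both (0.77) lay short of 2-fold, but it is itself a bound. Tbc1d4, known from insulin-driven glucose uptake, was 1.74-fold lower on one probe set, while the log2 ratio of the other was 1.52. Rabgap1 was at least 1.65-fold higher.

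Effectors bind active Rabs and carry out their work. Of 21 measured genes, Plekhm1, a Rab7 effector of lysosome fusion, read 379 in Smad4 -/- and 187 in Smad4 f/f, 2.02-fold higher, and was the only one past 2-fold. Golga2, a Golgi matrix protein that binds Rab1, was 1.89-fold higher, with 731 in Smad4 -/- and 386 in Smad4 f/f. Rph3al, an effector of Rab3 and Rab27, was 1.78-fold lower, with 186 in Smad4 -/- and 332 in Smad4 f/f. Rabep1, a Rab5 and Rab4 effector, was at least 1.43-fold lower on one probe set, while the log2 ratio of the other was 0.49. Of other Rab27 effectors, Sytl2 was at least 1.22-fold higher, Unc13d read 3028 in Smad4 -/- and 3006 in Smad4 f/f, and Sytl4 read 38089 in Smad4 -/- and 37243 in Smad4 f/f.

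**Figure D5:**
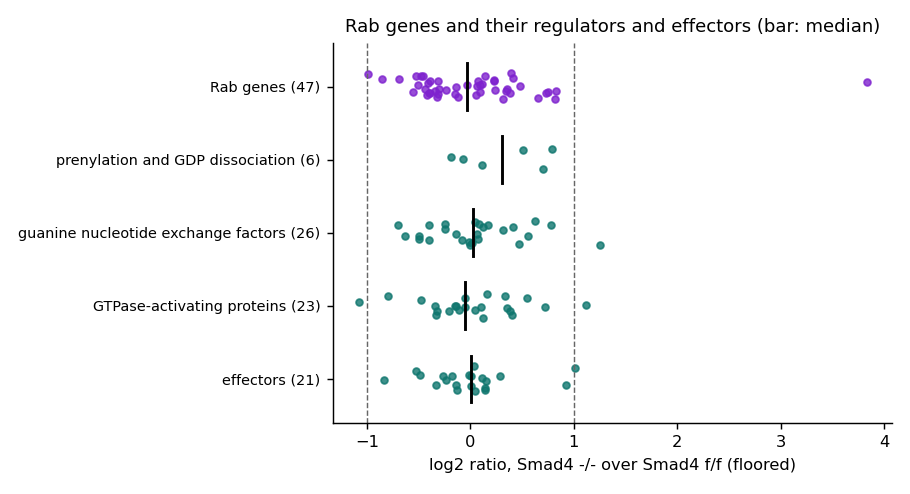
Floored log2 ratio, Smad4 -/- over Smad4 f/f (horizontal axis), of the 47 measured Rab genes (purple) and of the measured genes of 4 partner lists (green; numbers in brackets), with a bar at each median and dashed lines at 2-fold. Points are spread vertically only for visibility; the medians lie between -0.05 and 0.31, and Rab6b stands alone at the right.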

How the data were processed

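Total RNA of washed platelets was made into biotin-labelled cRNA and run on Affymetrix mouse arrays, per the labels' protocols. The authors deposited a log2 signal for each probe set on each array. The submitters' processing notes name MAS5, with neither a version nor its settings. The antilogs have equal trimmed means (500.007 on each array), so the scaling by the authors was kept. No detection calls were used.

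Of 45037 probe sets that are not controls, 34945 have 1 gene symbol, 932 several and 9160 none in the platform annotation, which can be old. All 59 Rab genes matched RefSeq (GRCm38.p6) by gene ID. The floor, the choice of probe set and the 2-fold rule are given with the results. No test was run. Python 3.11.15, pandas 2.3.3 and statsmodels 0.14.6 were used, and the steps were tested on simulated data. The rule for genes given with values took Rab genes past 2-fold and their paralogues, the 12 with the strongest signal, known platelet members, and the 4 partners of each list with the largest ratios; other Rab genes are described by role. Members and lists were chosen with earlier results of these data known. Alternatives were 3 scalings, other floors or none, the mean of probe sets, dropping the _s_at and _x_at classes, and other thresholds.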

Additional observations from a re-analysis of the deposited data

How the results depend on the processing

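Rab6b was at least 2-fold higher in Smad4 -/- under all settings tried, with log2 ratios between 3.22 (mean of its probe sets) and 3.93 (median centring). The count of Rab genes at least 2-fold higher was 3 when the floor was the 50th percentile and 3 with no floor, where Rab19 and Rab5b joined, and 6 at 1.5-fold. The count lower was 1 with no floor, where Rab3a joined, and 3 at 1.5-fold. The median over the Rab genes was -0.14 for a floor set to the 50th percentile, 0.068 at the 75th and -0.12 with none. The share of all measured genes past the threshold was 10.9%, 4.40% and 21.9% under those floors, 25.1% at 1.5-fold and 0.929% at 3-fold. Partner genes past the threshold numbered 7 for the 50th percentile floor, 0 for the 75th, 12 with none, 3 (without Sgsm1) for the mean of probe sets and 3 without the _s_at and _x_at classes, 14 at 1.5-fold and 0 at 3-fold. With no floor the SD between probe sets of a gene was 1.02. Of 364 recomputed Rab ratios, 347 moved by no more than the main SD of 0.48. Genes not measured under a setting are left out of the 364. Genes well above the floor on both arrays keep their value when the floor changes, so this share says little about robustness. The 17 others were under other floors, no floor, the mean of probe sets, or without _s_at and _x_at probe sets. Their cause was not tested beyond that. No paired analysis was possible because each genotype has 1 array.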
